A study of Homo sapiens with 6 samples.

Results

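The AP-1 transcription factor subunits were examined in HN5 cells, established from a squamous carcinoma of the human head and neck, and in a derivative with acquired resistance to erlotinib, an inhibitor of the epidermal growth factor receptor kinase. A gene was included if the platform annotation gave 1 of its probes the symbol FOS, FOSB, FOSL1, FOSL2, JUN, JUNB, JUND, ATF3, BATF3 or MAFF. These 10 genes, of 20046 named genes on the array, had 14 of its 47230 probes: ATF3 and MAFF had 3 each and the other 8 genes 1 each. Total RNA was hybridised to 6 Illumina arrays, 3 from the parental cells, which are erlotinib sensitive, and 3 from the resistant line. The resistant line arose from the parental cells through 3 months of rising erlotinib up to 12.5 µM and a further 6 months at that concentration. It is a single derived line with no parallel untreated passage among the groups, so resistance, the months in culture and any erlotinib still in the medium at harvest, which the labels leave unstated, cannot be told apart. The labels number biological replicates 1 to 3 in each group without saying whether these were separate cultures, and the p-values therefore reflect only the spread among these samples, part of which may be technical.

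AP-1 is not a single protein but a family of dimers built through leucine zippers. JUN, JUNB and JUND can pair with themselves or with each other, whereas FOS, FOSB, FOSL1 and FOSL2 bind DNA only with a partner, usually a JUN protein. ATF3, BATF3 and the small MAF protein MAFF belong to the same basic leucine zipper superfamily and lack the transactivation domain of FOS and JUN. Most of these genes are induced through the ERK and JNK kinases that act below growth factor receptors, and in keratinocytes the composition of AP-1 changes with differentiation, wounding and transformation.

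All 6 arrays carried the authors' normalized log2 signal, with a median of 6.90 on each. Background was taken to end 3 SD above the commonest value of each array, the SD being that of the values below it, at a limit of 6.97 to 6.98, which 40.8% to 41.2% of probes passed. Across all probes the arrays of 1 group correlated at r = 0.997 (6 pairs) and those of different groups at r = 0.978 to 0.980 (9 pairs). The squamous epithelial markers KRT5, KRT14, EPCAM and CDH1 were bright in both groups, at mean levels of 10.24 to 13.25. With named probes for 8 of the 11 listed squamous markers, 7 of the 8 fell, where 26.8% of all tested genes fell. The summed linear signal of these 8 went from 28624 to 30339 in parental to 18790 to 20080 in resistant arrays. Of the 8 fibroblast markers, 5 were tested and 4 rose, where 26.0% of all tested genes rose. Among these 4, COL1A2, DCN and LUM entered the test only through the resistant arrays. COL1A2 also lost its call with the mean of its probes (limma adjusted p = 0.116). The summed linear signal of the 8 was 991 to 1010 on parental and 1915 to 1933 on resistant arrays, while PDGFRB and THY1 were at background on every array. Of the 8 leukocyte markers PTPRC, CD3D, CD3E and LYZ were at background throughout, and MS4A1 exceeded the limit on 1 array. CD14 and CD79A exceeded it on all arrays, with log2 differences of 0.11 and -0.07 that did not pass the test, CD68 rose by 1.38, and the sum over all 8 went from 1980 to 2126 in parental to 3598 to 3930 in resistant arrays. Of 7 endothelial markers PECAM1 rose, from background in the parental cells, and none of the other 6 exceeded the limit on any array (sums of 777 to 782 and 821 to 827). The part of these markers in the AP-1 values below was not tested.

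Promoter sequence was available in RefSeq (GRCh38.p14) for 8 of the 10 genes, as 10 windows of 300 bases. They were searched on both strands for the AP-1 site TGACTCA, for the longer cAMP response element, made of the half-site TGAC and its reverse complement, and, added after these results were seen, for TGACNTCA, a pattern that includes the cAMP response element. The stretches with a match are shown because AP-1 or related dimers could bind there by letter, with the match in capitals. Sites that depart from these patterns were not searched for, so other such places may exist in these windows.
JUN, chr1:58784081-58784140, minus strand: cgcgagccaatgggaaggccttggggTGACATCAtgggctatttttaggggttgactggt
JUND, chr19:18281789-18281848, minus strand: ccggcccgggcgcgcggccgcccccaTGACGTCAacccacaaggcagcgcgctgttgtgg
ATF3, chr1:212565258-212565317, plus strand: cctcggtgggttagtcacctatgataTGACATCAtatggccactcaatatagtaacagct
MAFF, chr22:38201914-38201973, plus strand: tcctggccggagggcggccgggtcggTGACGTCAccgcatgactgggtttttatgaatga
FOSL2, chr2:28392836-28392894, plus strand: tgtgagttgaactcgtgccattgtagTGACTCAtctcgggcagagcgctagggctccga
The JUN match starts 67 bases before the annotated start, and it is the AP-1-like element through which JUN is known to stimulate its own gene. The matches of JUND, ATF3 and MAFF start 200, 123 and 54 bases before the start, and that of FOSL2 lies 5 bases into the transcribed part. ATF3 and MAFF had 2 windows each, at different annotated starts, and the match lay in only 1 of the 2. TGACNTCA occurred in 7.72% of the 35116 windows of all genes, the exact cAMP response element in 1.85% and TGACTCA in 4.95%. The windows of FOS, FOSB and JUNB held none of these letters, and no window held the serum response CArG box, found in 1.29% of all windows. Sequence beyond these 300 bases was not searched, so a site missing here may lie further from the start of the gene. An NF-kB site, present in 11.3% of all windows, was found in 1 of the 2 MAFF windows. These are matches of letters in short windows, and binding was not measured.

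Most AP-1 subunit genes were higher in the resistant cells. Among those above background on all arrays FOSL1 rose most, 2.34-fold, followed by JUND, ATF3, JUN and FOSB, while FOSL2 and JUNB did not pass the test. FOS and MAFF also rose, from at or near background in the parental cells, which leaves them without a place in that order. BATF3 was at background on every array. In RNA from a whole culture, more cells expressing a gene and more RNA per cell cannot be told apart. With every named gene tested irrespective of brightness, 7 of the 10 rose and 0 fell, where 14.9% of all 20046 genes rose (limma, Benjamini-Hochberg adjusted p under 0.05). The median log2 difference of the 10 genes was 0.48 in that fit, and that of all genes -0.0019. Among the 7 subunit genes above background on all 6 arrays, 5 rose, where 26.1% of the 9905 such genes rose. The values below come from the fit of the 11432 genes above background on at least 3 arrays, of which 26.0% rose and 26.8% fell, and all adjusted p-values are limma's over all of them. FOS passed that filter through the resistant arrays alone. MAFF, above the limit on 1 parental array, would not have passed it without the resistant arrays. The entry of both into the count of 7 therefore followed partly from their rise. In 7 of the 9 subunit genes tested, FOS and MAFF among them, all resistant arrays lay above all parental arrays. The same held in 28.7% of all 11432 genes tested.

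**Figure D1:**
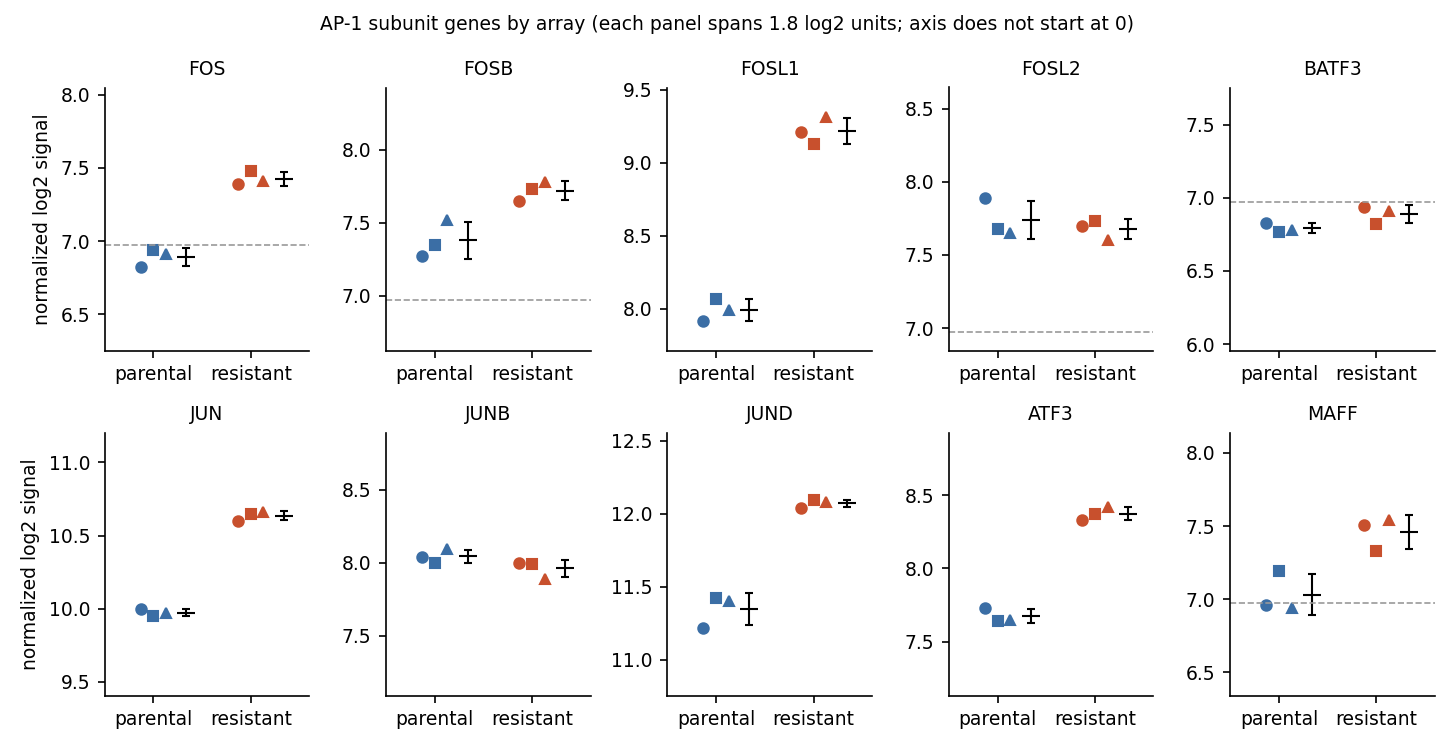
Normalized log2 signal (vertical axis) of the probe representing each AP-1 subunit gene on each array, parental in blue and resistant in orange. Circles, squares and triangles are replicates 1, 2 and 3, the black bar beside each group is its mean ± SD (n = 3), and the dashed line is the background limit. FOSL1, JUN, JUND and ATF3 are clearly separated between the groups, FOSL2 overlaps, JUNB nearly touches, and BATF3 lies below the limit on all arrays.

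Of the FOS family FOSL1, FOS and FOSB rose. FOSL1 encodes FRA-1, a subunit whose protein is stabilised by ERK and which is often raised in invasive carcinomas. Its signal was 7.92, 8.07 and 7.99 on the parental arrays and 9.21, 9.13 and 9.31 on the resistant arrays. The groups were 1.06 apart at their nearest arrays, many times the SD within a group (0.0774 and 0.0874, n = 3 each). The log2 difference was 1.22 (SE 0.0640, adjusted p = 3.93e-09), a fold change of 2.34 with a 95% confidence interval of 2.12 to 2.57. Only 1.24% of tested genes had a larger rise.

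FOS, the classical partner of JUN and a rapidly induced, short-lived transcript, was not above background in the parental cells. Its signal was 6.82, 6.94 and 6.91 there and 7.39, 7.48 and 7.41 in the resistant cells. All 3 resistant arrays exceeded the limit and all parental arrays, by 0.46 at the nearest pair. The rise was at least 1.37-fold, taken from the resistant mean down to the parental background limits, and the fitted log2 difference was 0.54 (SE 0.0573, adjusted p = 3.85e-06). FOS thus became detectable, but stayed within about a log2 unit of the floor, where the scale is compressed.

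FOSB, which like FOS is an early response gene, was dim but above background on all arrays. It measured 7.27, 7.35 and 7.52 in parental and 7.65, 7.73 and 7.78 in resistant cells. The highest parental array came within 0.13 of the lowest resistant one, the closest approach among the called subunit genes. The log2 difference was 0.34 (SE 0.0693, adjusted p = 0.00104).

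FOSL2, which encodes FRA-2 and is the closest relative of FOSL1, did not pass the test. It measured 7.89, 7.68 and 7.65 in parental and 7.70, 7.73 and 7.60 in resistant cells, and the groups overlapped. Parental replicate 1 was the highest of the 6 arrays. The log2 difference was -0.07, with a 95% confidence interval of -0.22 to 0.08 (adjusted p = 0.451). Without parental replicate 1 the difference was 0.0080, so its sign rested on that array. The interval leaves out a rise of the size seen in FOSL1.

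In the JUN family, JUN and JUND rose by similar amounts and JUNB did not pass. JUN, the most strongly transactivating member, measured 10.003, 9.954 and 9.967 in parental and 10.603, 10.652 and 10.660 in resistant cells. Its SDs were 0.0250 and 0.0310, and the groups were 0.60 apart. The rise was 0.66 (SE 0.0534, adjusted p = 2.68e-07), or 1.58-fold with a 95% confidence interval of 1.46 to 1.72. JUND, which in many cells is expressed steadily rather than induced, measured 11.22, 11.42 and 11.40 in parental and 12.04, 12.09 and 12.08 in resistant cells. Parental replicate 1 lay below the other parental arrays, and all resistant arrays lay at least 0.61 above the highest of them. JUND rose by 0.72 (SE 0.0630, adjusted p = 6.07e-07), or 1.65-fold (95% confidence interval 1.50 to 1.81).

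JUNB, a weaker activator that can restrain JUN and slow the cell cycle, measured 8.042, 7.998 and 8.089 in parental and 7.997, 7.989 and 7.891 in resistant cells. All resistant arrays were the lower ones, but by only 0.00039 at the nearest pair, and 30.2% of all tested genes had groups that did not overlap in that direction. The log2 difference was -0.08, with a 95% confidence interval of -0.21 to 0.04 (adjusted p = 0.244). As with FOSL2, the interval does not reach the rises of its relatives.

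**Figure D2:**
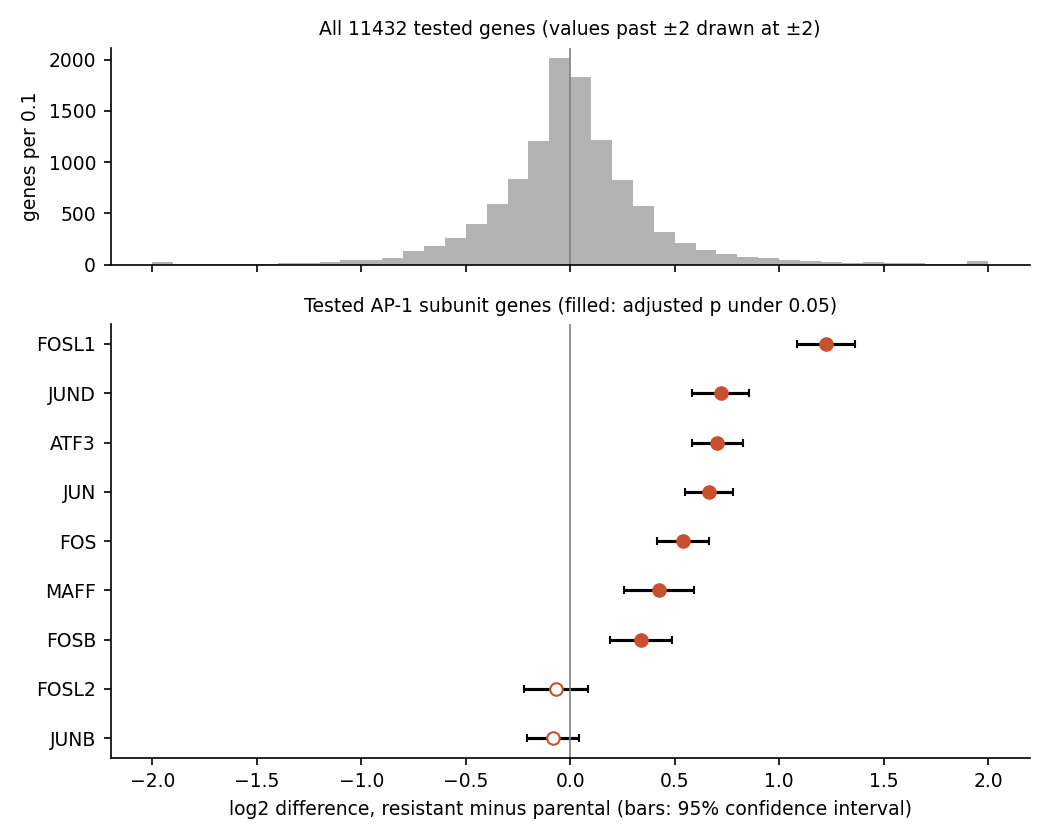
Upper panel, the number of genes (vertical axis) at each log2 difference, resistant minus parental (horizontal axis), over all 11432 tested genes. Lower panel, the 9 tested AP-1 subunit genes on the same axis with 95% confidence intervals from limma, filled where the adjusted p passed the threshold; 7 genes lie to the right of 0, FOSL1 at 1.22, and the intervals of FOSL2 and JUNB cross 0.

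ATF3, a stress-induced subunit that often represses transcription, rose on the 1 of its 3 probes that gave a signal. On that probe (ILMN_2374865) it measured 7.73, 7.64 and 7.65 in parental and 8.33, 8.37 and 8.42 in resistant cells. The groups were 0.60 apart and the SDs were 0.0508 and 0.0441. The rise was 0.70 (SE 0.0562, adjusted p = 2.48e-07), or 1.63-fold (95% confidence interval 1.50 to 1.77). The other ATF3 probes, ILMN_1791346 and ILMN_1661109, were at background on all 6 arrays, between 6.67 and 6.87, so no change could be read from them. The first of these is annotated to the same transcript as the bright probe and the second to another, so the difference does not follow the annotated transcripts.

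MAFF, a small MAF protein that has no activation domain and pairs with NRF2-type factors as well as with FOS, rose on all 3 of its probes. The brightest, ILMN_2322375, measured 6.96, 7.19 and 6.94 in parental and 7.51, 7.33 and 7.54 in resistant cells. Only parental replicate 2 exceeded the limit among the parental arrays, and it came within 0.14 of the lowest resistant array. The log2 difference was 0.43 (SE 0.0776, adjusted p = 4.22e-04). The dimmer probes, ILMN_1700413 and ILMN_1680139, exceeded the limit on all resistant arrays and on no parental array, which gives rises of at least 1.45-fold and at least 1.31-fold. Tested probe by probe, all 3 passed (limma adjusted p over probes = 3.59e-06 to 5.77e-04). Of the 14 subunit probes 11 could be tested and 9 of these rose, where 24.1% of the 15332 probes tested rose. Of the 9, 3 entered the test through the resistant arrays alone, the FOS probe and these dimmer MAFF probes. The brightest MAFF probe, above the limit on 1 parental array, also needed the resistant arrays to enter. Nothing is therefore read from the count of 9.

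BATF3, a partner of JUN known chiefly from dendritic cells and lymphoid tumours, could not be followed. It measured 6.83, 6.77 and 6.78 in parental and 6.94, 6.82 and 6.91 in resistant cells, all under the limit and with overlapping groups. In the fit without the brightness filter its difference was 0.10, with an interval of -0.0097 to 0.20 (adjusted p = 0.184).

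**Figure D3:**
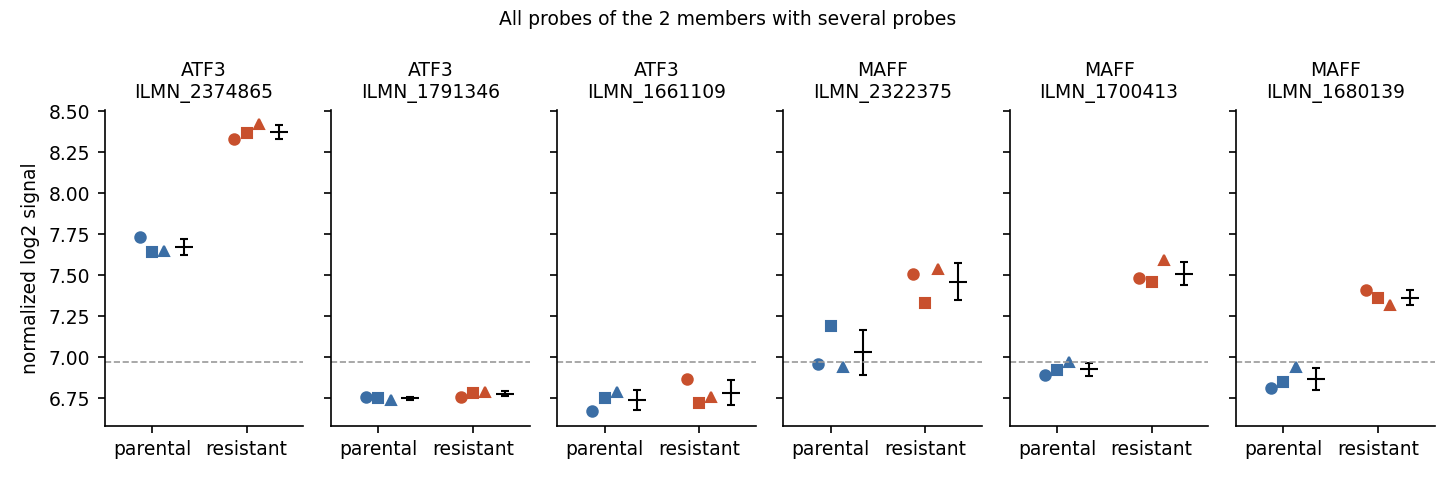
Normalized log2 signal (vertical axis, shared) on each array for all probes of ATF3 and MAFF, with symbols, means ± SD (n = 3) and background limit as in the plot of the subunit genes by array. The 3 MAFF probes are all higher in the resistant cells, whereas 1 ATF3 probe is higher and the other ATF3 probes stay below the limit in both groups.

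Whether close relatives changed unequally was tested on their difference within each array, which removes whatever shifts both probes alike. Relative to the parental mean, the FOSL1 minus FOSL2 difference ran from -0.23 to 0.14 on parental and from 1.16 to 1.46 on resistant arrays, so FOSL1 changed by 1.29 more. The JUN minus JUNB difference grew by 0.75 and the JUND minus JUNB difference by 0.80, and the groups did not overlap in either. FOS changed by 0.20 more than FOSB, again without overlap, but FOS was at background on all parental arrays, so the floor bears on the size of this difference and it is no measure of unequal change. JUN and JUND differed in their change by -0.06, and here the groups overlapped. With 3 arrays a group the exact two-sided permutation test cannot go below p = 0.1, which the first 4 of these 5 pairs reached (adjusted p = 0.125 over the 5 pairs), and for JUN against JUND the exact p was 0.8. None of the pairs could therefore pass the threshold.

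The scale of the low values matters for the dimmer subunits. When the background mode of each array was subtracted before taking logs, the fold change of FOS went from 1.45 to 3.27, that of MAFF from 1.34 to 2.28, that of ATF3 from 1.63 to 2.17 and that of FOSB from 1.27 to 1.62. FOSL1 went from 2.34 to 3.13, while the brighter JUN and JUND barely moved, to 1.64 and 1.67. All 7 still passed (limma adjusted p = 3.86e-06 to 0.00417), but FOS then had the largest fold, so the order of the subunits by fold depends on how the floor is treated.

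**Figure D4:**
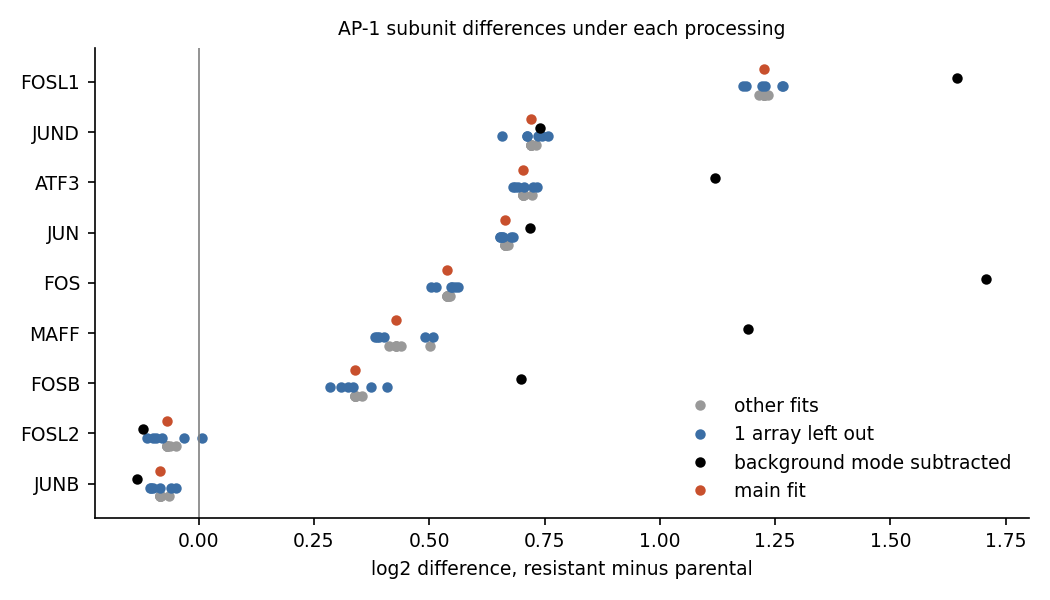
Log2 difference, resistant minus parental (horizontal axis), of each tested subunit gene as reported (orange), with 1 array left out (blue), with the background mode subtracted (black) and under the other fits tried (grey). Subtraction moves FOS, MAFF, ATF3, FOSB and FOSL1 to the right and leaves JUN and JUND near their reported values; 1 blue point of FOSL2 lies just right of 0.

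The genes most like FOSL1 over the 6 arrays, by Euclidean distance between centred log2 values, were PRDM8 (distance 0.122, difference 1.25), GSTZ1 (0.147, difference 1.21) and CAVIN3 (0.160, difference 1.16). PRDM8 encodes a histone methyltransferase family member, GSTZ1 an enzyme of tyrosine breakdown and CAVIN3 a caveolar coat protein. For JUNB, which had the lowest difference among the subunits, the nearest were FOXL2, STYXL2 and TLR6 (distances 0.0420 to 0.0431), all of them dim genes that did not pass the test either. The measure is a description of 6 arrays in 2 groups and mostly follows the difference between them.

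The other listed members of the AP-1 superfamily that could be tested were also higher. Of 11 listed, 9 had a named probe and 5 were tested, and all 5 rose, where 26.0% of all tested genes did. Tested irrespective of brightness, 5 of the 9 rose, where 14.9% of all named genes did, and BATF, ATF7, MAFA and NRL were at background on all arrays. MAF, a large MAF protein with its own activation domain, rose by 0.63 (8.12 ± 0.0677 to 8.75 ± 0.0946, SD, n = 3 each; limma adjusted p = 2.66e-06). JDP2, a repressor that dimerises with JUN, rose by 0.33 and ATF2, a target of JNK and p38 that pairs with JUN, by 0.26 (limma adjusted p = 6.99e-04 and 0.00215). BATF2 was at background on all parental arrays, so it entered the test through the resistant ones, where it averaged 7.13, at least 1.12-fold higher. MAFG, a relative of MAFF named here after its value was seen, rose by 0.21 (limma adjusted p = 0.0288). This did not pass without parental replicate 3 (limma adjusted p = 0.128) or resistant replicate 2 (0.143) or with the background mode subtracted (0.0501).

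Of 17 listed genes of the kinases and factors that drive AP-1, 13 were tested, 4 rose and 3 fell, with a median log2 difference of -0.03. These counts lie near the shares of 26.0% and 26.8% over all genes tested. MAP3K1, a kinase that acts above JNK and ERK, rose by 0.91 (limma adjusted p = 1.01e-07). MAPK10, the JNK gene best known from neurons, fell to background, by at least 1.32-fold, and RPS6KA1, which encodes the ERK-activated kinase RSK1, and MAPK3, which encodes ERK1, fell by 0.38 and 0.33 (limma adjusted p = 1.29e-04 and 2.21e-04). The other 3 rises, named after their values were seen, were MAP2K2 by 0.41, RPS6KA3 by 0.27 and ELK4 by 0.22; the mean of the ELK4 probes lost its call (adjusted p = 0.226). SRF, the factor that binds the CArG box, and its partner ELK1 differed by -0.03 and 0.04 and did not pass (limma adjusted p = 0.722 and 0.712). These are transcript levels, and kinase activity was not measured.

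Among the listed genes known in other systems as AP-1 targets more rose than fell. The collagenase gene that gave AP-1 its classical binding site was not among the rises. Of 22 listed, 18 were tested, 11 rose and 2 fell, with a median log2 difference of 0.30, beside shares of 26.0% and 26.8% over all genes. Tested irrespective of brightness, 12 of the 21 with a named probe rose and 2 fell, where 14.9% of all named genes rose. The list, which includes AXL, was chosen with earlier results of these data known, so nothing about AP-1 targets in general is read from these counts. The falls were MMP1, that interstitial collagenase, from 9.90 to 7.57, and the stromelysin MMP10, from 10.55 to 7.98 (limma adjusted p = 3.96e-10 and 1.85e-12). The chemokine gene CXCL8 rose by 3.31 and the metalloproteinase inhibitor gene TIMP1 by 1.65, and CCL2, at background in all parental cells, reached 9.85 and rose at least 7.37-fold. AXL, the receptor kinase of the study's title and a gene reported to depend on FOSL1 in bladder cancer cells, went from 8.22 to 11.11. CCL2 and IL6 passed the brightness filter only through the resistant arrays. The rises of EZR and KRT18, of 0.13 and 0.15, lost their call under 10 and 5 of the 14 alternatives, among them the removal of any 1 array for EZR and of any but parental replicate 2 or resistant replicate 3 for KRT18 (adjusted p up to 0.154 and 0.138).

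Some, but not all, other immediate early genes share the ERK and serum response control of FOS. Of 14 listed, 10 were tested, 6 rose and 2 fell, with a median log2 difference of 0.22, where 26.0% of all genes rose and 26.8% fell. Among the 6, CCN1, named after its value was seen, rose by 0.22, which did not pass without parental replicate 1 (limma adjusted p = 0.0710) or resistant replicate 1 (0.0578) or with the background mode subtracted (0.0585). KLF6, a zinc finger factor, rose by 1.09, the phosphatase gene DUSP1 by 0.98 and IER3 by 0.86. EGR1, a zinc finger factor induced with FOS by growth factors, fell by 1.10 (SE 0.0992, limma adjusted p = 8.11e-07), opposite in sign to FOS and FOSB, and IER5, named after its value was seen, fell by 0.32. MYC differed by 0.02 (limma adjusted p = 0.861).

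**Figure D5:**
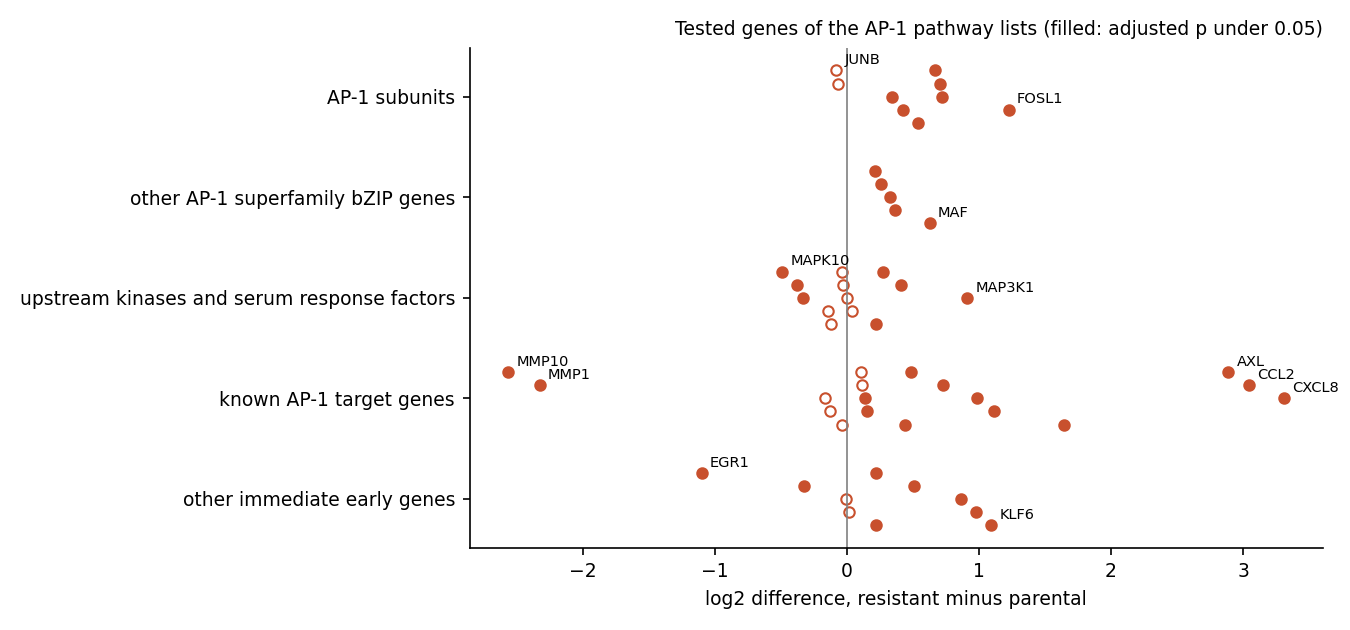
Log2 difference, resistant minus parental (horizontal axis), of each tested gene of 5 lists around AP-1 (rows), filled where the limma adjusted p passed the threshold; heights within a row only separate the points. The subunits and their superfamily relatives lie mostly to the right of 0, the upstream genes lie on both sides, and the known target genes spread widest, from MMP10 at -2.56 to CXCL8 at 3.31.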

How the data were processed

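The authors deposited normalized log2 signal per probe; which software, background treatment and normalization they used is not given in the sources used here. Log base 2 was inferred from the values. The sorted values of the 6 arrays differed by at most 0.00434 at any rank, as after quantile normalization, so a change here is measured against the rest of the same array. The signals before normalization were not used, because the headings of their 12 per-sample columns match no sample's labels. Probes were named through the platform annotation: 30112 had 1 symbol, 8 several, and 17110 were unnamed; symbols were looked up by Entrez ID in a RefSeq table, which held 30073 of these probes and changed 0 symbols. Each gene was represented by its probe with the highest mean. Resistant and parental arrays were compared with limma 3.58.1 in R 4.3.3 (lmFit, eBayes, no block; residual df 4, prior df 8.88), with Benjamini-Hochberg adjustment over all genes tested and a threshold of 0.05, and the fit was tested on simulated data. Precision is limited by the number of arrays.

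The members, the gene lists and the alternatives were chosen with earlier results of these data known. All 10 subunit genes are named with every probe; from each other list the text names up to 4 tested members with the smallest adjusted p, the target genes MMP1 and AXL, and the 3 genes nearest in profile to the largest rise and the lowest difference. Other genes, the TGACNTCA pattern and the further bZIP genes were added after their values were seen. The alternatives were 2 other brightness filters, cyclic loess, subtraction of the background mode (then adding 16), the mean of probes, an intensity trend, array weights, the replicate block and leaving out each array.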

Additional observations from a re-analysis of the deposited data

How the results depend on the processing

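In the 14 alternatives, 123 of the 124 values of the 9 tested subunit genes kept their direction and their side of the threshold. The exception was FOSL2, whose difference ran from -0.112 to 0.00804 with 1 array left out, turning positive without parental replicate 1 (limma adjusted p = 0.933). The count of raised subunit genes was 7 in all alternatives but the filter requiring signal on all 6 arrays, where FOS and MAFF were no longer tested and the count was 5. Leaving out 1 array at a time gave 7 raised subunit genes each time, and between 5427 and 5648 changed genes in all, against 6028 with every array; over all alternatives the latter ran from 5419 to 6140. With the replicate number as a block, 7 subunit genes and 6140 genes changed. Same-numbered arrays share only a number: their deviations from the group means correlated at 0.144, 0.001 and 0.086 over genes, and not every array correlated best with its own number. BATF3, FOS and the dimmer MAFF and ATF3 probes are limited by signal over background.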

Other observations

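Further bZIP genes, on neither the subunit list nor the list of superfamily relatives, include possible partners of ATF3 and of the small MAF proteins. They were listed after the AP-1 values were known. Of 31 genes 23 were tested, 11 rose and 5 fell, with a median log2 difference of 0.07, where 26.0% of all genes rose and 26.8% fell. NFE2, among the 11, was at background on all parental arrays and entered the test through the resistant arrays alone. CREB5, also among the 11, exceeded the limit on 1 parental array and needed the resistant arrays to enter. NFE2L3, a relative of NRF2 that pairs with small MAF proteins, rose by 1.06 (limma adjusted p = 2.55e-08), from 8.64 ± 0.0526 to 9.69 ± 0.119 (SD, n = 3 each). ATF5 rose by 0.87, CEBPB, an inflammatory response factor, by 0.65 and XBP1, a factor of the unfolded protein response, by 0.55 (limma adjusted p = 3.85e-06, 2.76e-07 and 2.36e-05). CREB3L2 fell by 0.66 and CEBPA, a differentiation factor, fell by 0.45 (limma adjusted p = 8.86e-06 and 1.80e-04). NFE2L2, which encodes NRF2 itself, rose by 0.17 (limma adjusted p = 0.0346), but not without parental replicate 1 or 2 or resistant replicate 2 or 3 or with the background mode subtracted (adjusted p = 0.0576 to 0.137). NFE2L1 fell by 0.28, but not without parental replicate 2 or resistant replicate 2 or 3 or with the background mode subtracted (limma adjusted p = 0.0605 to 0.0823). The rise of NFIL3, by 0.19, was lost without parental replicate 3 (limma adjusted p = 0.0597). CREB1, CREB3, ATF6 and ATF6B did not pass.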
